A study of Citrus unshiu with 2 samples.

Results

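Short stretches of DNA whose CHH methylation differed between Citrus unshiu (satsuma mandarin) shoots under light drought and under normal water are described here. They lie outside annotated gene features. Positions and gene features are those of a reference whose build, and so whose species, was not given in the sources used here. CHH stands for a cytosine followed by 2 bases other than G. The members are the regions that the authors' deposited CHH table lists, once each, on the 9 numbered chromosomes with no promoter, UTR, exon, intron or downstream flank named for them. There were 36968 of them among 82479 listed CHH regions, or 44.8%, and 62.2% of the 59450 CHH regions on numbered chromosomes. The remaining listed regions on these chromosomes, 22482, name a gene feature.

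Methylation was read by whole-genome bisulfite sequencing of shoots (mature stems), in which unmethylated cytosines are converted and then sequenced as thymine. The light drought library came from trees whose soil dried out naturally until its moisture stood near 15%, over 75 days of treatment. The normal water library came from watered trees kept in the same rain-proof tunnel, in containers that limit the roots. For each condition 20 trees were set aside. How many of them each library pooled was not given in the sources used here. With 1 library per condition, no spread between trees could be measured and no test between the conditions was made.

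In plants, CHH methylation cannot be copied from one strand to the other at replication and has to be laid down again after each cell division. RNA-directed DNA methylation, guided by small RNAs through DRM2, sets much of it at short and young transposons and at the edges of longer ones, while CMT2 maintains it inside long transposons in heterochromatin. Both pathways act mostly outside coding sequence, and intergenic DNA of plant genomes is rich in transposons. No transposon annotation or genome sequence of these coordinates was used here, so no region could be assigned to a transposon and no sequence is printed.

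The regions were selected by the difference between the same 2 libraries, so the counts of direction and the sizes below describe the list and support nothing by themselves. Each difference is the methylation level under light drought minus that under normal water, in percentage points. The level of each region in each library was not used, because the names of the level columns match neither library's label. The sign was taken from the order of the conditions in the name of the table and set against the separately deposited gene levels. Of 4532 genes whose promoter regions were higher by the table, 92.5% had a higher promoter CHH level in the light drought library. Of 886 genes whose promoter regions were lower, 66.7% had a higher promoter level, a smaller share than among the higher ones (Pearson's r = 0.367 over 5418 genes, which are not replicates). For downstream flanks the shares were 92.1% of 3191 genes and 63.2% of 623 genes. The share over all genes is not given here, and most genes with lower regions were higher too. The 92.5% and 92.1% alone therefore do not settle the sign, and only their contrast with the lower sets bears on it.

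Most intergenic CHH regions had more methylation in the light drought library. Of the 36968 regions, 29655 (80.2%) had a positive difference and 7313 (19.8%) a negative one. Over all listed CHH regions the shares were 80.2% and 19.8%, so the direction of the intergenic regions matches that background and is not particular to them. The higher regions had a median difference of 19.3 points, with quartiles of 14.7 and 24.8 points. The lower regions had a median of -16.6 points, with quartiles of -21.3 and -12.7 points. The distribution had 2 separate humps with few regions near 0, and the smallest absolute difference was 0.12 points.

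**Figure D1:**
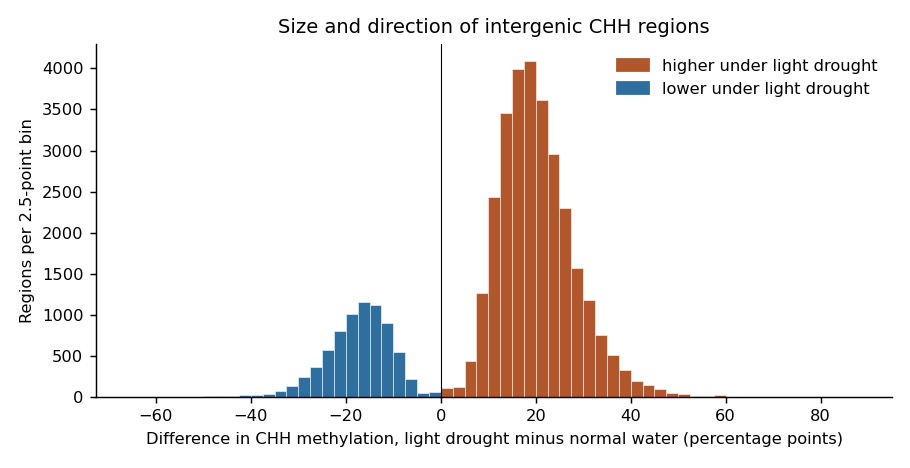
Histogram of the difference in CHH methylation, in percentage points (light drought minus normal water), for the 36968 intergenic regions in bins of 2.5 points. Bars right of 0 are the 29655 higher regions and bars left of 0 the 7313 lower ones under light drought. The higher hump peaks near its median of 19.3 points and reaches farther from 0 than the lower hump, whose median is -16.6 points.

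The larger the difference, the more one-sided was its direction. Among regions that differed by 5 points or less, 68.4% of 332 were higher under light drought, and between 10 and 15 points 74.6% of 7890 were. Between 20 and 30 points the share was 84.2% of 12398 regions, between 30 and 40 points 91.5% of 3020, and above 40 points 93.5% of 599. Counted by a fixed size, 13759 regions (37.2%) were higher by at least 20 points, against 37.4% of all listed CHH regions, and 2265 (6.13%) were lower by as much, against 5.96%. At 40 points, 560 regions (1.51%) were higher, against 1.73% of all listed CHH regions, and 39 (0.105%) were lower, against 0.107%. These shares at 20 and 40 points are close to their backgrounds and show no result about intergenic regions. For the steps of size given before them, shares over all listed CHH regions were not computed.

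In the authors' deposited table the largest difference was on chromosome 5 at 4625728 to 4625869, where the difference was 83.8 points over 26 cytosines and the corrected p 0.00016. Since a level cannot pass 100%, a difference of this size needs at least 83.8% methylation under light drought and at most 16.2% under normal water. The next were a region of 44 bp on chromosome 3 at 23382898 to 23382941 with 70.8 points and one of 69 bp on chromosome 4 at 2112504 to 2112572 with 64.9 points. The other 7 of the 10 largest lay between 59.9 and 63.5 points. They were at 19546209 to 19546229 on chromosome 4, at 32364970 to 32365022 and 13578750 to 13578806 on chromosome 5, at 654607 to 654709 on chromosome 7, at 27163950 to 27164050 on chromosome 3, at 7618910 to 7618957 on chromosome 1 and at 20192289 to 20192349 on chromosome 2.

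The regions with the largest differences in the lower direction reached -50.3 points, on chromosome 2 at 7780488 to 7780517, where 12 cytosines lay in 30 bp. That size needs at most 49.7% methylation under light drought and at least 50.3% under normal water. The next were on chromosome 4 at 15733728 to 15733745 with -49.7 points and on chromosome 6 at 7192888 to 7192928 with -49.6 points. The other 7 of the 10 lay between -48.6 and -45.2 points. They were at 17417472 to 17417549, 17361486 to 17361512 and 21148235 to 21148263 on chromosome 2, at 20779799 to 20779944 on chromosome 3, at 14299940 to 14299977 on chromosome 4, at 5223309 to 5223339 on chromosome 5 and at 21099234 to 21099259 on chromosome 7. One of these, on chromosome 3, was long for the list, with 38 cytosines in 146 bp and -47.6 points.

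Intergenic regions were short, and most held the smallest number of cytosines on the list. Their median length was 47 bp, with quartiles of 34 and 70 bp and extremes of 10 and 337 bp. Every region held at least 10 CHH cytosines, 20600 of them (55.7%) held exactly 10, and the largest number was 72. Exactly 10 were also held by 56.5% of CHH regions in gene features on these chromosomes and 55.6% of intergenic ones on unplaced sequence. The share is thus not particular to the 36968 regions. Together the 36968 regions covered 2099521 bp, or 0.879% of the 238.9 Mb up to the last listed base of each chromosome. Higher regions had a median of 48 bp and lower regions 44 bp. Across the 36968 regions, which share the same 2 libraries, length and absolute difference had a Pearson's r of -0.0140, and length and number of cytosines one of 0.464.

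Regions with more cytosines were more often higher under light drought. The share was 78.4% of the 20600 regions with 10 cytosines, 81.5% of the 5573 with 13 to 15, 86.4% of the 3008 with 16 to 20, and 92.7% of the 1411 with more than 20. By length, 75.4% of the 6196 regions of up to 30 bp were higher and 89.9% of the 1904 regions over 120 bp. Shares by number of cytosines or length were not computed over all listed CHH regions, so these gradients are not shown to be particular to intergenic regions. The median absolute difference lay between 17.9 points, with 11 or 12 cytosines, and 19.2 points, with more than 20. The 5 longest regions were all higher under light drought, by 10.9 to 27.0 points. They were on chromosome 6 at 8555449 to 8555785 (337 bp, 35 cytosines, 21.8 points), chromosome 2 at 14578478 to 14578813, chromosome 4 at 9990031 to 9990350, chromosome 7 at 20038983 to 20039301 and chromosome 8 at 4976206 to 4976518.

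**Figure D2:**
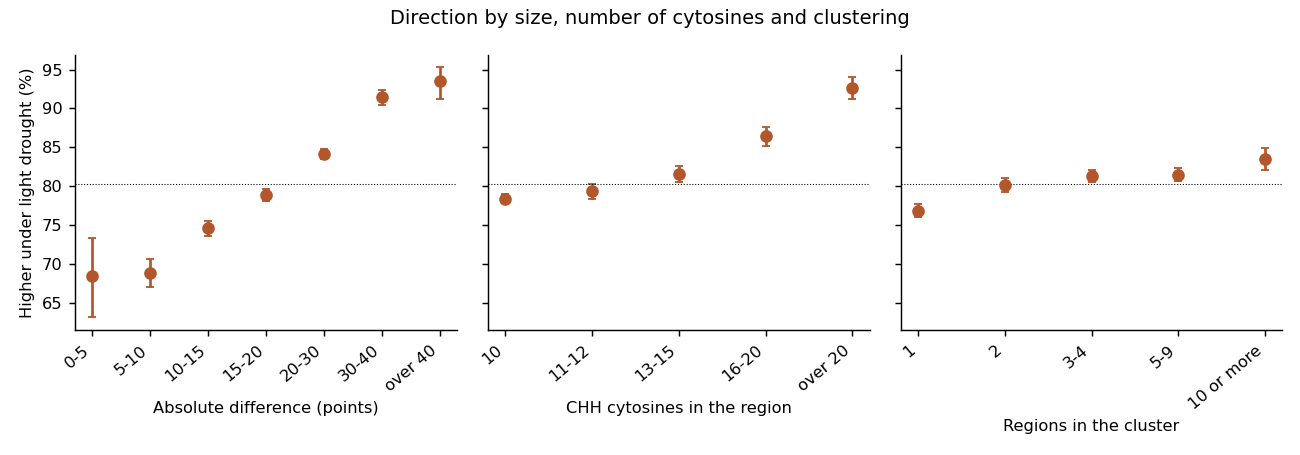
Share of intergenic CHH regions that were higher under light drought (y axis, percent) by absolute difference in points, by number of CHH cytosines in the region and by number of regions in its cluster (x axes). Points are shares, bars are exact binomial 95% intervals that cover counting error only, and the dotted line is the share over all 36968 regions (80.2%). The share climbs with size to 93.5% and with cytosines to 92.7%, and less with clustering, to 83.5%. The same steps were not computed over all listed CHH regions.

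The deposited p-values match a test over cytosines within a region, not over trees. All 29760 intergenic regions with 10 to 13 cytosines carried, to 5 significant digits, a p that an exact two-sided rank-sum test of equal numbers of cytosines can give. Of the 5797 regions with 14 to 20 cytosines, 5795 carried a value of the same test's normal approximation. The 20600 regions with 10 cytosines took only 24 different p-values, which are the 24 that this test can give below 0.05. The highest of these was 0.0433 and the lowest 1.08e-05 in the authors' deposited table. The highest p among all intergenic regions was 0.0498, carried by 7 regions of 18 cytosines on 6 chromosomes, of which 6 were higher and 1 was lower under light drought, with absolute differences between 8.62 and 13.9 points.

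In a rank-sum test, the lowest attainable value means that every cytosine level in one library lay above every level in the other. It was reached by 863 of the regions with 10 to 13 cytosines, or 2.33% of all intergenic regions, against 2.62% of all listed CHH regions. Of the 863, 765 were higher under light drought with a median of 31.6 points and 98 were lower with a median of -21.1 points. None of the 863 had a corrected p at or below 0.05 in the authors' deposited table, and 119 had a corrected p of 1. The smallest corrected p among them there was 0.0507. The corrected values did not follow the order of the rank-sum p. Regions of 10 cytosines with the same lowest rank-sum p of 1.08e-05 carried corrected values as different as 0.251 and 0.873. How the corrected values were computed was not given in the sources used here. Counts and ranks by corrected p are therefore those of the deposited column, not of the rank-sum test.

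Few intergenic regions had a small corrected p. In the authors' deposited table it was at most 0.05 in 83 of them (0.225%), against 0.27% of all listed CHH regions, and it was 1 in 31822 (86.1%). Of the 83 regions, 79 were higher under light drought, which is 0.214% of the intergenic regions against 0.247% of all listed CHH regions. The other 4 were lower, or 0.0108% against 0.023%. These regions held 16 cytosines or more, with a median of 25, and their median length was 122 bp. The smallest corrected p in the authors' deposited table was 2.66e-07, on chromosome 2 at 6721638 to 6721919, where 64 cytosines differed by 35.7 points. The next was 2.48e-05 on chromosome 4 at 9990557 to 9990768, with 44 cytosines and 29.5 points, close to the third longest region. The other 8 of the 10 smallest were at 20779799 to 20779944 on chromosome 3, at 9639929 to 9640130 on chromosome 2, at 22882616 to 22882704 and 4625728 to 4625869 on chromosome 5, at 5969877 to 5970017 and 654607 to 654709 on chromosome 7, at 8473285 to 8473505 on chromosome 9 and at 8644738 to 8644794 on chromosome 1. Of these 10, only the region on chromosome 3 was lower under light drought, and the others were higher by 13.4 to 83.8 points.

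The 4 lower regions with a corrected p of at most 0.05 were named after their values were seen. They were the chromosome 3 region with -47.6 points, one on chromosome 2 at 13785706 to 13785757 with -18.0 points, and on chromosome 7 one at 18329298 to 18329365 with -12.6 points and one at 9175066 to 9175192 with -29.8 points. The last 3 held 16 cytosines each.

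Chromosomes differed in how many intergenic regions they held and hardly in their direction. Per Mb of listed span, chromosome 4 held 239.0 regions (4769) and chromosome 7 held 226.6 (7297). Chromosome 2 held 161.5 (4979), chromosome 6 155.7 (3296), chromosome 1 149.0 (4291) and chromosome 8 141.1 (3204). Chromosome 5 held 130.7 (4720), chromosome 9 97.3 (1794) and chromosome 3 91.2 (2618). The share that was higher under light drought lay between 79.1% on chromosome 5 and 81.2% on chromosome 7. The median of the higher regions was lowest on chromosome 3, with 18.7 points, and highest on chromosome 6, with 19.9 points. For the lower ones the medians ran from -17.3 points (chromosome 2) to -16.1 points (chromosome 3). Median lengths lay between 45 and 49 bp.

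Within chromosomes the regions were concentrated in broad stretches. In windows of 1 Mb, counted by region start, the 234 full windows held a median of 124.5 regions, with quartiles of 69.25 and 219 and extremes of 13 and 483. The 44 windows with more than 2 times the median held 41.7% of the regions in full windows. Counts of adjacent windows resembled each other (Pearson's r = 0.789 over 225 pairs of windows). Counts of higher and of lower regions followed the same outline (r = 0.94 over 234 windows). All windows share the same 2 libraries, so these correlations are descriptions.

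The 5 fullest windows lay on chromosomes 7 and 4. On chromosome 7, the window at 21000001 to 22000000 held 483 regions (386 higher and 97 lower under light drought), that at 20000001 to 21000000 held 470 and that at 25000001 to 26000000 held 466. On chromosome 4, the adjacent windows at 13000001 to 14000000 and 14000001 to 15000000 held 473 and 471. Each of the 5 held 46 to 61 genes. All but 1 of the 5 emptiest full windows lay on chromosome 2, at 2000001 to 3000000 with 13 regions, 1000001 to 2000000 with 19, 7000001 to 8000000 with 22 and 3000001 to 4000000 with 29. The other was on chromosome 3 at 26000001 to 27000000 with 30 regions. Each of these held 119 to 167 genes. On every chromosome the fullest window had fewer genes than the emptiest one, with 38 to 82 genes against 115 to 155.

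**Figure D3:**
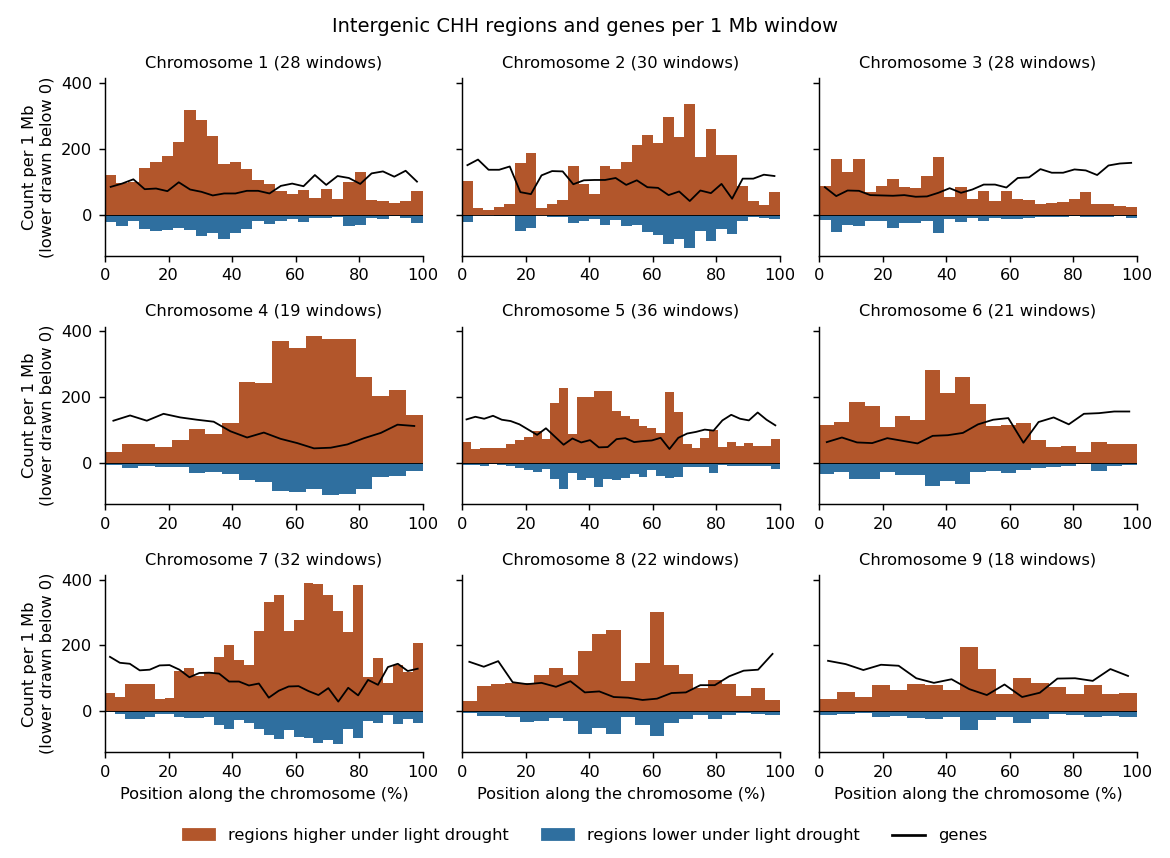
Intergenic CHH regions per full 1 Mb window along each chromosome, with those higher under light drought drawn above 0 and those lower drawn below 0, and genes per window as a line. The x axis is the position in percent of the chromosome's full windows and the y axis is a count. Regions pile up where the line of genes dips, as on chromosome 4, where the fullest window holds 473 regions and 46 genes.

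Intergenic CHH regions were fewer where genes were dense. Genes were placed from their identifiers: of 23324 genes on numbered chromosomes, 11660 had a listed region of any context, which lay on the chromosome named in the identifier in 100% of cases and followed the order of the identifiers in all but at most 0.829% of the steps on any chromosome. The others were set at even steps between their numbered neighbours, which placed 23316 genes in all and left out those that lie beyond the outermost genes with a region. Over the 234 full windows, the number of intergenic CHH regions and the number of genes had a Pearson's r of -0.669 and a Spearman's rho of -0.732. Within single chromosomes rho lay between -0.623 on chromosome 6 and -0.934 on chromosome 4. The regions were chosen for lying outside gene features, and the amount of such sequence per window was not measured, so its part in this correlation was not tested. With the CHH regions in gene features added, r was -0.487. Intergenic regions and CHH regions in gene features had an r of 0.341 over all 243 windows.

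Direction and spacing also differed along this gradient. The full windows were split by their number of genes into 3 sets of 78. The gene-rich windows (117 to 174 genes) held a median of 61 intergenic regions each, and 82.8% of their 5683 regions were higher under light drought. The middle windows (76 to 117 genes) held a median of 126.5, with 80.9% of 11544 higher, and the gene-poor windows (29 to 76 genes) a median of 224.5, with 79.0% of 19289 higher. The median difference of higher regions was 20.1, 19.5 and 19.0 points in the same order, and that of lower regions -16.4, -16.4 and -16.9 points. The median gap between neighbouring regions was 1012.5, 792 and 722 bp. Median length was 47 bp in each set. Whether these differences between the sets exceed the variation between trees was not tested.

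**Figure D4:**
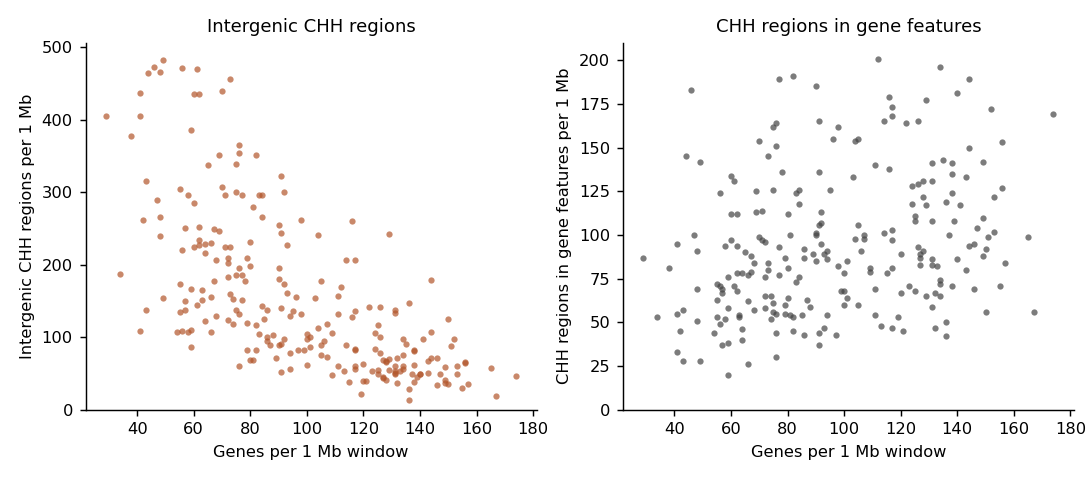
Intergenic CHH regions (left, y axis) and CHH regions in gene features (right, y axis) per full 1 Mb window, against the number of genes placed in the window (x axis). Each point is 1 of 234 windows. Intergenic counts decline with the number of genes (Spearman's rho = -0.732), while counts in gene features have a rho of 0.306.

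No window of 1 Mb had more lower than higher regions. Over the 140 full windows with at least 100 intergenic regions, the share higher under light drought lay between 67.7% and 88.5%, with a median of 79.8%. The SD of these shares was 3.76 points, where counting error alone gives 2.97 points. The lowest share among these 140 windows was on chromosome 1 at 10000001 to 11000000, with 155 of 229 regions higher (exact 95% interval 61.2% to 73.7%, for counting error only). The highest was on chromosome 2 at 14000001 to 15000000, with 139 of 157 higher (82.5% to 93.1%). In the 140 windows the share was nearly unrelated to the number of regions (r = 0.0470). With the number of genes it had an r of 0.273.

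Most intergenic regions had another within 1000 bp, and a few gaps were far longer. The gap between neighbouring intergenic regions had a median of 776 bp and a mean of 6402 bp, with quartiles of 143 and 4059 bp. Of 36959 gaps, 7646 (20.7%) were at most 100 bp, 19978 (54.1%) at most 1000 bp, and 220 were over 100000 bp. In 210 cases a region began where its neighbour ended, and none overlapped. Median gaps were shortest on chromosome 4, with 492 bp, and longest on chromosome 9, with 1336 bp. The distance to the nearest CHH region in a gene feature had a median of 8815 bp, and 2097 intergenic regions (5.67%) lay within 1000 bp of one. Of those 2097, 83.7% were higher under light drought, and of the 8064 regions over 20000 and up to 100000 bp away, 78.5%. Of the 83 regions farther away still, 81.9% were higher.

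With neighbours joined across gaps of up to 1000 bp, the regions formed 16990 groups, of which 8877 were single regions (24.0% of all regions). Groups of at least 5 numbered 1564 and held 11136 regions (30.1%), with a median span of 1724.5 bp. Single regions were higher under light drought in 76.9% of cases, and regions in groups of 10 or more in 83.5% of 2871 cases. Shares by group size over all listed CHH regions were not computed. Most large groups mixed both directions: of 218 groups of 10 or more, 180 were mixed, 38 were all higher and 0 were all lower. Of 1346 groups of 5 to 9, 914 were mixed, 430 were all higher and 2 were all lower. In groups of 5 to 9, 31.9% were all higher, where independent directions would give 26.7% at the overall share of higher regions and 29.2% at the share of 81.5% in these groups. In groups of 10 or more, 17.4% were all higher, where independent directions would give 6.96% at the overall share and 11.1% at the share of 83.5% in these groups.

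The largest group was on chromosome 9 at 8132531 to 8142598, with 35 regions that hold 477 CHH cytosines, 28 of them higher and 7 lower under light drought. Its differences lay between -26.6 and 40.8 points. The highest of them, 40.8 points, was at 8133627 to 8133649, just after a region of 29 cytosines at 8133519 to 8133622 with 25.4 points. The lowest was at 8139789 to 8139818. The second was on chromosome 7 at 23081669 to 23092527, with 33 regions, 23 higher and 10 lower, between -23.8 and 34.6 points. The third was on chromosome 5 at 13217219 to 13228044, with 29 regions, 27 higher and 2 lower, between -14.2 and 39.7 points. All 3 groups held regions of both directions, and the longest of them spanned 10859 bp.

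Neighbouring regions shared their direction most often within 50 bp, by a few points above the share that the excess of higher regions gives by itself. Up to 1000 bp apart, the planned limit, 71.7% of 19978 pairs had the same direction. The share of lower regions in those pairs alone would give 70.0%, so the excess was 1.74 points, with the pairs within 50 bp included. Between neighbours 1 to 50 bp apart, 77.6% of 4816 pairs had the same direction, where the share of lower regions in these pairs alone would give 74.4%. The excess was thus 3.17 points. It was 1.37 points for gaps of 51 to 100 bp (72.5% of 2620 pairs), 1.23 points for gaps over 100 and up to 300 bp (70.8% of 5373) and 0.934 points for gaps over 300 and up to 1000 bp (68.0% of 6959). For gaps over 1000 and up to 5000 bp it was 0.505 points (65.8% of 8532 pairs), over 5000 and up to 20000 bp 0.629 points, and over 20000 bp -0.757 points (68.7% of 3377). In pairs that touched, 164 of 210 had the same direction. Taken bin by bin, the observed share exceeded counting error only at 1 to 50 bp. For touching pairs and in every bin beyond 50 bp, the share expected without dependence lay inside the exact binomial interval of the observed one. The decline of the excess beyond 50 bp is therefore not shown by these shares alone.

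The lower regions show the dependence more plainly. Beside a lower neighbour 1 to 50 bp away, 25.6% of regions were lower, and beside a higher neighbour 13.2%. At gaps over 300 and up to 1000 bp the shares were 23.1% and 20.2%, and over 20000 bp they were 16.8% and 19.3%. The differences of neighbours 1 to 50 bp apart had a Pearson's r of 0.165 over 4816 pairs, and over 20000 bp apart of -0.00398. Even at the shortest gaps, 1081 of 4816 pairs had opposite directions. Within 50 bp the excess was positive on each of the 9 chromosomes, from 0.779 points on chromosome 7 to 5.38 points on chromosome 8.

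**Figure D5:**
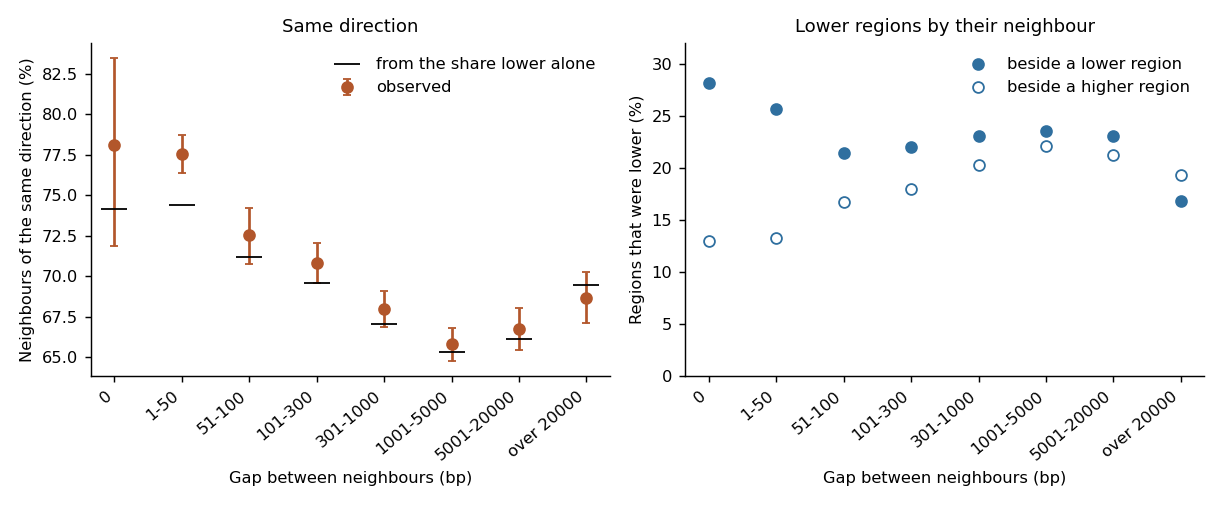
Left: share of neighbouring intergenic CHH regions with the same direction (y axis, percent) by the gap between them in bp (x axis), with exact binomial 95% intervals for counting error only, and dashes for the share that the frequency of lower regions in each bin alone would give. Right: share of regions that were lower under light drought, beside a lower (filled) and beside a higher (open) neighbour. The observed share is 77.6% at 1 to 50 bp against 74.4%. In the bins beyond 50 bp the dashes lie within the intervals. The filled points lie above the open ones up to 20000 bp and below them beyond.

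Runs of neighbours of one direction, at any gap, were longer for higher than for lower regions. The 5660 runs of higher regions had a mean length of 5.24 regions, where independent directions would give 5.06, and the 5657 runs of lower regions had a mean of 1.29, against 1.25. Of the lower runs, 78.1% were a single region. The longest higher run held 48 regions on chromosome 2 at 419075 to 3087217, a stretch of 2668143 bp that takes in the 2 emptiest windows, where all 13 and all 19 regions were higher. The next were also on chromosome 2, with 41 regions at 24531901 to 24778715 and 40 regions in only 34857 bp at 16963644 to 16998500. The longest lower runs held 7 regions, and 5 runs were of that length.

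CG and CHG regions did not enter the selection, though they come from the same 2 libraries. Of the intergenic CHH regions, 92 (0.249%) shared at least 1 bp with a listed CG region and 171 (0.463%) with a CHG region. The same shares over all listed CHH regions were not computed, so these counts are not shown to be particular to intergenic regions. These overlaps involved 85 of 2114 CG regions (4.02%) and 151 of 2400 CHG regions (6.29%) on numbered chromosomes. Both totals include regions in gene features, and only 642 of the CG and 874 of the CHG regions were intergenic. How many of the 85 and 151 were intergenic was not counted, so the 2 percentages understate the overlap with comparable regions. Where they coincided, the directions were mostly the same. With CG, 79 of 92 pairs had the same direction (85.9%, exact 95% interval 77.0% to 92.3% for counting error only), where independent directions would give 78.0%. With CHG, 144 of 171 did (84.2%, 77.9% to 89.3%), where independent directions would give 68.0%. The CHG region was higher under light drought beside 84.9% of higher and 20.0% of lower CHH regions. The CG region was higher beside 89.2% of higher and 44.4% of lower CHH regions, with only 9 pairs of the lower kind.

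Among pairs that lay within 200 bp without overlapping, 57.5% of 212 pairs with CG regions had the same direction, where independent directions would give 59.6%, and 182 of the pairs with CHG regions did (60.5%), where they would give 59.0%. Up to 1000 bp the shares were 58.7% of 755 pairs with CG, against 60.0%, and 57.6% of 1135 pairs with CHG, against 57.2%. There were 22 intergenic CHH regions that overlapped a region of both other contexts. In 20 of them the differences in all contexts were positive and in 1 all were negative. The remaining one, singled out after its values were seen, on chromosome 2 at 15532614 to 15532664, had a CHH difference of 10.5 points beside -21.0 points for its CG region and -13.9 points for its CHG region. The largest was on chromosome 5 at 13578750 to 13578806, with 60.0 points in CHH, 34.9 points in the CG region at 13578675 to 13578789 and 29.2 points in the CHG region at 13578634 to 13578793. The next 4 were on chromosome 1 at 22316242 to 22316310 with 31.3 points in CHH, on chromosome 2 at 24012420 to 24012467 with 29.9 and at 24930423 to 24930482 with 29.2 points, and on chromosome 7 at 11985995 to 11986058 with 24.1 points. Their CG differences lay between 8.69 and 30.2 points and their CHG differences between 19.5 and 37.2 points, all positive. The 20 all-positive regions were not all separate cases. Those on chromosome 7 at 15721407 to 15721457 and 15721480 to 15721516 shared a CHG region. Those on chromosome 3 at 481633 to 481670 and 481688 to 481763 shared their CG and CHG regions. The one on chromosome 1 at 18810052 to 18810098 had only 0.365 points in CHH, 0.867 in CG and 0.379 in CHG.

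Set beside other listed regions, intergenic CHH regions were close in size and length to those in gene features. The intergenic median was 19.3 points for higher and -16.6 points for lower regions, against 19.9 and -15.7 points in gene features on the same chromosomes. The share higher under light drought was 80.2% against 81.5%, and against 82.7% of 11345 regions that name promoters only. Intergenic CHH regions on unplaced sequence, 16960 in number, were higher in 78.8% of cases, with medians of 18.8 and -16.9 points and a median gap of 807 bp. Median lengths were 47, 47, 49 and 46 bp in these lists. Among intergenic regions of the other contexts on numbered chromosomes, 66.7% of 642 CG regions and 63.4% of 874 CHG regions were higher. No test of these differences was possible with 1 library per condition. The number of stretches that could be tested for each list was not given in the sources used here.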

How the data were processed

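Bisulfite libraries of light drought and normal water shoots, 1 each, were compared by the authors. Bismark 0.20.1, bedtools 2.26.0 and SAMtools 1.4 appear, with no role, in the submitters' processing notes. Per the file headers, the authors deposited region tables with a p-value, a corrected p-value and a signed difference (a score, in percentage points), with the number of cytosines, and gene tables with levels in percent. Genome build, caller, coverage minimum and read depth were not given in the sources used here. Altogether 6 columns of group levels in the region tables were not used, since their names match neither library.

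Members and lists were chosen with earlier results of these data known. Starts were read as counted from 0, because the deposited overlap equalled end minus start in 97.9% of 20417 CHH regions with 1 feature and was longer in none, and are printed counted from 1. Regions were named by rule: the 10 largest in each direction, the 5 longest, the 10 smallest corrected p-values, the 3 largest groups, the 5 fullest and emptiest windows, the 3 longest runs and the 5 largest that overlap both other contexts. Gene identifiers matched none of the RefSeq names given, 0 of 29073. Spacing, window, grouping and overlap steps were tested on simulated data. Python 3.11.15, numpy 2.4.6, pandas 2.3.3, scipy 1.17.1 and matplotlib 3.10.9 were used.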

Additional observations from a re-analysis of the deposited data

How the results depend on the processing

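No paired analysis was possible because only 1 library stands for each condition, and none could be left out. Depth is unknown, so no interval for single levels could be given. A share counted as moved outside its exact 95% binomial interval, other values beyond 1.5 times. The comparisons within 50 bp were added after seeing the data. Of 65 recomputed values 31 stayed within these limits and the other 34 moved. Counts per window, of pairs and of groups change with the window, gap limit or merging distance by construction. The cause of the remaining moves was not tested. The share higher was 83.8% at p up to 0.01, 88.0% at p up to 0.001, 95.2% at a corrected p up to 0.05 (where the higher median was 30.03 points and the median length 122 bp), 85.9% at 20 points or more and 82.8% with at least 12 cytosines. Windows of 0.5 Mb held a median of 59 regions and of 2 Mb 241, with ranges of 299 and 939 between the fullest and emptiest. With the main limit of 1000 bp, 71.7% of 19978 pairs of neighbours had the same direction. Neighbours of the same direction were 75.8% of 7646 pairs up to 100 bp, 73.8% of 13019 up to 300 bp, 69.96% up to 5000 bp, 77.1% of 8662 at p up to 0.01 and 79.6% of 5562 at 20 points or more. The share that the excess of higher regions gives by itself was not computed for these changed settings. It differs between them, since 83.8% of regions were higher at p up to 0.01 and 85.9% at 20 points or more. No change in agreement can be read from these shares. Groups of at least 5 numbered 593 (9.80% of regions) at 300 bp and 2407 (57.5%) at 3000 bp. Within 200 and 1000 bp, overlaps included, 285 and 761 regions neighboured CG regions (66.1% of 304 pairs and 61.6% of 847 had the same direction) and 456 and 1191 neighboured CHG regions (69.1% of 472 pairs and 61.1% of 1306). For these pairs, too, the share that independent directions would give was not computed. Within 50 bp, 84.5% of neighbours matched at p up to 0.01, where the share of lower regions would give 80.2%, and 85.8% at 20 points or more, against 83.3%.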

Other observations

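The places below were chosen after their values were seen. On chromosome 2 at 20670194 to 20679534, 2 of the 5 longest lower runs followed each other, so that 14 of 15 intergenic CHH regions in 9341 bp were lower under light drought. Their differences lay between -45.0 and 19.6 points with a median of -21.4 points. The other lower runs of 7 regions were on chromosome 1 at 10836393 to 10866104, inside the 1 Mb window with the lowest share of higher regions among the 140 with at least 100 regions, on chromosome 5 at 22067207 to 22081969 and on chromosome 7 at 25013587 to 25030314. The 2 groups of at least 5 regions that were all lower each held 5, on chromosome 6 at 18393066 to 18394052 with -24.96 to -14.99 points and on chromosome 9 at 11537663 to 11539099 with -29.0 to -11.3 points. Of the 1564 groups of at least 5 regions, 64 had more lower than higher regions.

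The longest gaps between intergenic regions were not empty of CHH regions. The gap of 435457 bp on chromosome 2 at 792569 to 1228025 held 18 CHH regions in gene features, the gap of 404044 bp on chromosome 3 at 24436334 to 24840377 held 36, and the gap of 314313 bp on chromosome 4 at 395503 to 709815 held 27.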
